A study of Mus musculus with 18 samples.

Results

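The hemidesmosome is the rivet-like junction that fixes a basal epithelial cell to its basement membrane. The genes described here are Itga6, Itgb4, Itga3, Col17a1, Dst, Plec, Lama3, Lamb3 and Cd151, which encode its core parts, its laminin ligand and the integrin and tetraspanin linked to them; they were taken from the table by symbol and are 9 of its 26143 genes. RNA was sequenced from 18 mouse libraries in 4 groups, and the label of each is squamous epithelium. WT, with 3 libraries, is esophagus of wild type mice, and the other 3 groups are tongue. The p53 group (3 libraries) is heterozygous for the LSL p53 allele R172H, the E20 group (6 libraries) carries the LSL allele PIK3CA H1047R, and the E20/p53 group (6 libraries), the double mutants, carries both alleles together with K14-Cre. LSL is a stop element between loxP sites, and the allele behind it is read once Cre recombinase has cut the element out. K14-Cre expresses Cre from the keratin 14 promoter, which is active in basal keratinocytes. The labels name Cre for the double mutants only, and they give no age, sex, treatment or tumour status for any library, although the title of the series speaks of tumours started with the carcinogen 4NQO.

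In the junction, the integrin chains alpha 6 (Itga6) and beta 4 (Itgb4) form the receptor that binds laminin-332 outside the cell. Collagen XVII (Col17a1) spans the membrane beside them, and the plakins BP230 (from Dst) and plectin (Plec) tie the complex to keratin filaments inside the cell. Laminin-332 is a trimer, and the members include its chains alpha 3 (Lama3) and beta 3 (Lamb3). The tetraspanin CD151 associates with the laminin-binding integrins, among them alpha 3 beta 1, whose alpha chain is Itga3 and which sits in focal contacts outside the hemidesmosome. In stratified epithelia such as tongue and esophagus this machinery belongs to the basal layer, and the loss or gain of its parts has long been studied in squamous carcinoma.

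Levels are CPM, the reads of a gene scaled to a common library size, computed from whole reads recovered from the deposited log2 values, and ± is the SD. Libraries held 14592044 to 18176060 reads. The libraries of E20 and of E20/p53 fell into blocks by replicate number, 1 to 3 and 4 to 6. Over 13699 genes, Pearson's r ran from 0.992 to 0.995 within blocks (18 pairs of libraries) and from 0.892 to 0.955 between the blocks of a group (18 pairs), which describes likeness and tests nothing. Blocks were seen in the data, so levels are given by block with no test between blocks, and each group comparison is repeated without each block. A fit without a block sets the 3 libraries of the other block against a group. Its p-values leave out the spread between the blocks of that group. They show how far a call rests on a block and are not tests of a block. The sources do not say whether replicate libraries were taken from different mice, so a p-value here reflects spread between libraries that could be technical in origin. The 4 groups share 1 estimate of that spread, which takes in the spread between blocks. The labelled tissue was checked against marker genes. The summed level of 8 basal keratinocyte genes was 1012 to 1038 CPM in E20/p53 1 to 3, 111 to 130 CPM in E20 1 to 3, 31.2 to 36.1 CPM in WT, and 5.48 to 16.7 CPM in the other 3 blocks. Krt5, a defining keratin of basal cells, was at or near 0 in WT, p53, E20 4 to 6 and E20/p53 4 to 6, with no more than 3 reads in any of these libraries. Cdh1, which encodes E-cadherin, did not exceed 2.47 CPM in any library, and Epcam did not exceed 0.864 CPM. Other genes of the same list of 6 simple epithelium genes were higher in WT, with Krt18 at 228 CPM and Krt8 at 41.5 CPM. The list summed to 275 to 291 CPM in WT and to at most 12.3 CPM in any other block. The summed level of 8 fibroblast genes was 111 to 116 CPM in E20/p53 1 to 3, 1445 to 1567 CPM in WT and 8471 to 21694 CPM in the other 4 blocks. Outside E20/p53 1 to 3 this sum was mostly the collagens Col1a1, Col1a2 and Col3a1. In WT, Col1a2 alone stood at 1344 CPM, while Dcn, Pdgfra, Thy1, Fap and Lum did not exceed 8.62 CPM. In p53 and E20, Pdgfra was at 394 and 124 CPM, and Thy1 at 125 and 0.504 CPM. Markers of squamous epithelium were therefore sparse in most of the libraries that carry that label. In bulk samples such as these, fewer cells of a type and less RNA per cell cannot be told apart.

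Promoters are shown for a pair of members whose levels differed most between blocks among those in the RefSeq table (GRCm38.p6), Col17a1 and Itga3, and for Cd151, whose level varied little. The table held windows for 5 of the 9 members. Each sequence is the 250 bases before a start annotated in the RefSeq table, 5′ to 3′ on the gene's strand. Capitals mark matches to the searched motifs. These starts differ from the GENCODE positions given below, so the Itga3 and Col17a1 windows reach into the GENCODE genes. The windows are chr11:95076715-95076964 on the minus strand for Itga3, chr19:47692043-47692292 on the minus strand for Col17a1, and chr7:141467112-141467361 on the plus strand for Cd151.
Itga3: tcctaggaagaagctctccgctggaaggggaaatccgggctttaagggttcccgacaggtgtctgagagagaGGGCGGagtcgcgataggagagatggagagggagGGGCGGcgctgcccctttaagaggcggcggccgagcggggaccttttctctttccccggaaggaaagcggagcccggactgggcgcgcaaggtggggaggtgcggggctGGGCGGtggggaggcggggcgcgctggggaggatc
Col17a1: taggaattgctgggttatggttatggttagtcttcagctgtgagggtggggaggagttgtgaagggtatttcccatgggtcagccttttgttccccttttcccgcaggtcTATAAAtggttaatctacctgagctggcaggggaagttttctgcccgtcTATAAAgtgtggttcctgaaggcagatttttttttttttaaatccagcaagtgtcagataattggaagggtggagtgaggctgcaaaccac
Cd151: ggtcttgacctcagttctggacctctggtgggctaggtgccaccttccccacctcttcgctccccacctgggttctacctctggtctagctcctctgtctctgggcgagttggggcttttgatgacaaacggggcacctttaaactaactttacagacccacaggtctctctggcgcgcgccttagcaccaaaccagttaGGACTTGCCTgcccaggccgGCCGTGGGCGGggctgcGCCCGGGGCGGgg

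The motifs were searched on both strands. The GC box GGGCGG occurs in 32.7% of the 32851 mouse windows, TATAAA in 12.4%, the AP-1 motif TGANTCA in 6.75%, the TFAP2 motif GCCNNNGGC in 13.7%, the E-box CACGTG in 6.02% and the p53 family half-site RRRCWWGYYY in 7.13%. The Itga3 window held 3 GC boxes, which began 178, 144 and 35 bases before the start. The Col17a1 window held 2 TATAAA motifs, 140 and 91 bases before the start, and no GC box. The Cd151 window held 2 GC boxes, 25 and 8 bases before the start, each overlapping a TFAP2 motif that began 30 or 13 bases before the start. It also held 1 p53 family half-site 50 bases before the start. The 2 Lamb3 windows held none of the 6 motifs. Second windows of Itga3 and Cd151, not shown, held 1 GC box and 1 TFAP2 motif, in that order. A match is a description of letters and not a binding site.

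In mm10, GENCODE places Itga6 on chromosome 2 at 71745616 to 71858416, Itgb4 on chromosome 11 at 115974709 to 116008412, and Itga3 on the same chromosome at 95044474 to 95076801. Col17a1 lies on chromosome 19 at 47646344 to 47692094, Dst on chromosome 1 at 33908225 to 34308661, and Plec on chromosome 15 at 76170974 to 76232574. Lama3 lies on chromosome 18 at 12333819 to 12583013, Lamb3 on chromosome 1 at 193207699 to 193343878, and Cd151 on chromosome 7 at 141467392 to 141471473. Each is a protein-coding gene, and counts are per gene, so the epithelial BP230 form of Dst is not separated from its muscle and neuronal forms. Plec shares 205 exon bases, 1.13% of its exon length, with Parp10 on the same strand. Itgb4 shares 537 exon bases with B230344G16Rik on the opposite strand, which did not exceed 0.616 CPM.

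The members split into those that changed steeply from block to block and those that did not. The ratio of the highest to the lowest block mean was 477 for Col17a1, 153 for Itgb4, 41.4 for Lama3 and 38.6 for Itga6. It was 3.82 for Itga3, 2.08 for Plec, 1.88 for Cd151, 1.86 for Dst and 1.75 for Lamb3. On the log2 scale, 5 members ranged more widely over the 6 block means than the median of the 15206 genes tested, which was 1.26. The plots of level by library and of departure from each gene's own mean show this split.

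**Figure D1:**
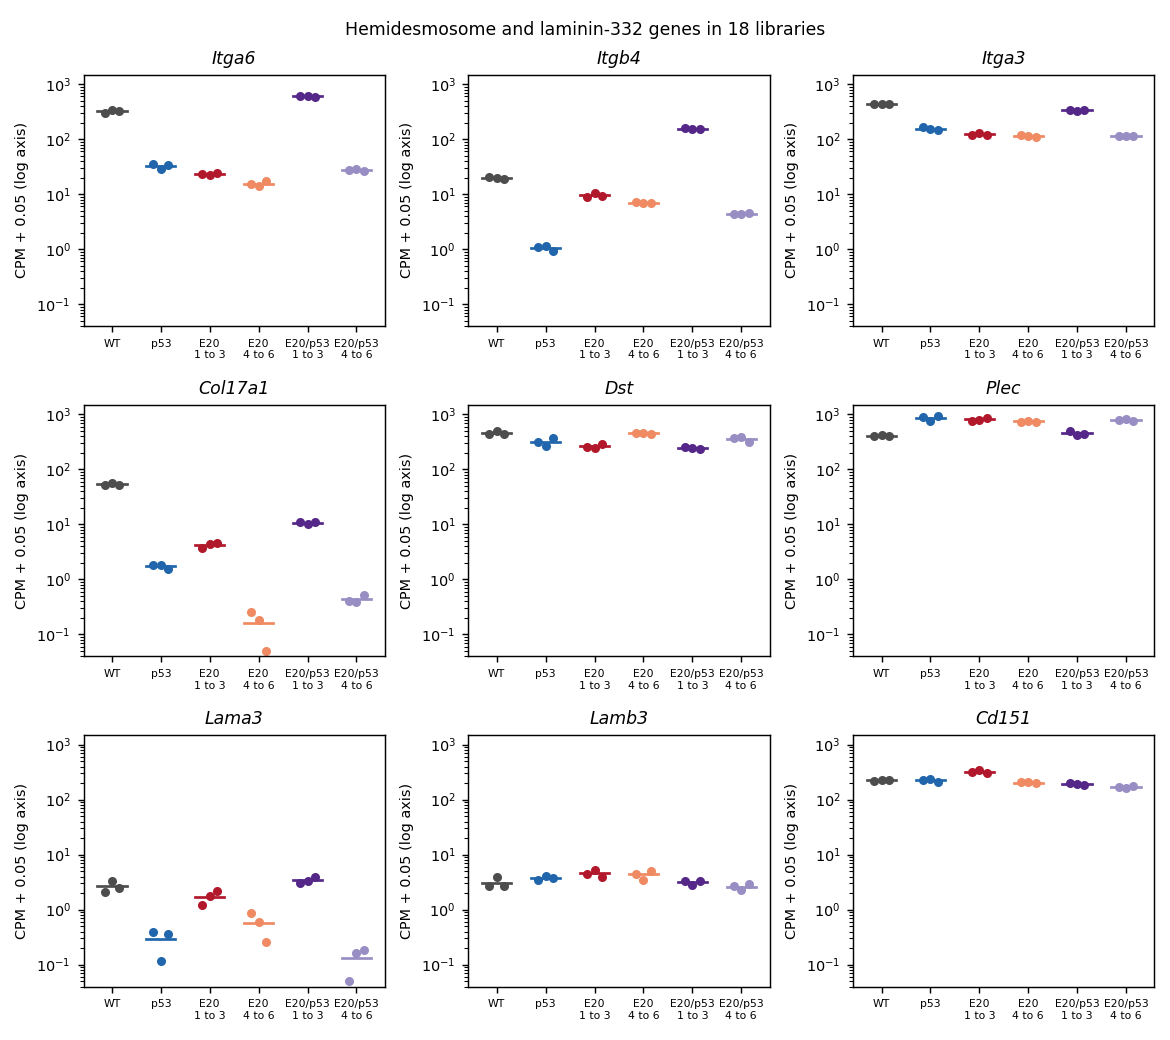
Level of each of the 9 genes in the 18 libraries, as CPM plus 0.05 on a log axis, by block of 3 libraries; points are libraries and bars are block means. Itga6 and Itgb4 were highest in E20/p53 1 to 3 (602 and 156 CPM), Itga3 and Col17a1 in WT (437 and 53.57 CPM), and Lamb3 stayed between 2.22 and 5.14 CPM in all libraries.

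Among the receptors, Itga6 was at 306, 344 and 320 CPM in the 3 WT libraries and at 35.2, 28.7 and 34.4 CPM in p53. In E20 1 to 3 Itga6 was at 23.6, 22.4 and 24.3 CPM, and in E20 4 to 6 at 15.5, 14.1 and 17.2 CPM. In E20/p53 1 to 3 it was at 600, 618 and 588 CPM, and in E20/p53 4 to 6 at 28.0, 28.8 and 25.9 CPM. The double mutants thus held both the highest libraries of the series for this laminin receptor chain and libraries that overlapped p53, and the 1 to 3 block stood 21.8 times above the 4 to 6 block.

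Itgb4, the beta chain that pairs only with alpha 6, was at 20.9, 20.07 and 18.9 CPM in WT and at 1.07, 1.11 and 0.882 CPM in p53. The E20 values of Itgb4 were 8.93, 10.5 and 9.32 CPM in libraries 1 to 3 and 7.04, 6.74 and 7.0 CPM in libraries 4 to 6. The double mutants held it at 160, 154 and 153 CPM in libraries 1 to 3 and at 4.29, 4.26 and 4.54 CPM in libraries 4 to 6. No neighbouring blocks overlapped in the order E20/p53 1 to 3, WT, E20 1 to 3, E20 4 to 6, E20/p53 4 to 6 and p53. The first of these stood 7.82 times above WT and 35.8 times above the other block of its own group.

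Itga3, the alpha chain of the focal contact laminin receptor, was at 442, 436 and 432 CPM in WT and at 164, 151 and 144 CPM in p53. E20 libraries 1 to 3 held Itga3 at 121, 128 and 119 CPM, and libraries 4 to 6 at 121, 113 and 110 CPM. Double mutant libraries 1 to 3 were at 345, 323 and 334 CPM, and libraries 4 to 6 at 113, 114 and 116 CPM. WT and E20/p53 1 to 3 stood above the other 4 blocks without overlap, as they did for Itga6, but here WT was the higher. The E20 4 to 6 block overlapped both E20 1 to 3 and E20/p53 4 to 6, while E20 1 to 3 lay above E20/p53 4 to 6.

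Cd151, the tetraspanin partner, was at 222, 226 and 223 CPM in WT and at 224, 238 and 211 CPM in p53. In E20 1 to 3 Cd151 was at 315, 342 and 310 CPM, and in E20 4 to 6 at 207, 206 and 198 CPM. In E20/p53 1 to 3 it was at 198, 193 and 188 CPM, and in E20/p53 4 to 6 at 170, 165 and 178 CPM. E20 1 to 3 was the high block, at 322 ± 17.1 CPM, and the 2 double mutant blocks were the low ones. Per kilobase of exon, Cd151 had the highest level of the 9 genes in every block, from 62.4 to 118 CPM per kilobase.

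Col17a1, the transmembrane collagen, was at 51.2, 56.7 and 52.7 CPM in WT and at 1.81, 1.76 and 1.51 CPM in p53. In E20 1 to 3 Col17a1 was at 3.61, 4.32 and 4.63 CPM. In E20 4 to 6 it was at 0.203, 0.133 and 0 CPM, and the count of 0 reads in 1 library allows up to 0.206 CPM at a floor of 3 reads. The double mutants held it at 10.8, 9.98 and 11.2 CPM in libraries 1 to 3 and at 0.357, 0.341 and 0.461 CPM in libraries 4 to 6. No neighbouring blocks overlapped, and WT was the highest. E20 4 to 6 held 5 reads in all, so its ratios are loose: E20 1 to 3 over E20 4 to 6 was 37.2 from summed reads (95% interval from exact binomial limits 15.7 to 116), and WT over E20 4 to 6 was 475 (203 to 1466). For E20/p53 1 to 3 over 4 to 6, with 553 and 19 reads, the ratio was 27.8 (17.7 to 46.6). These intervals hold counting error alone, because reads copied by PCR and not tagged by molecule are not independent.

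The plakins went another way. Dst was at 447, 495 and 435 CPM in WT and at 318, 270 and 371 CPM in p53. E20 libraries 1 to 3 held Dst at 253, 241 and 295 CPM, and libraries 4 to 6 at 457, 465 and 437 CPM. Double mutant libraries 1 to 3 were at 260, 243 and 237 CPM, and libraries 4 to 6 at 367, 397 and 318 CPM. Its lowest block, E20/p53 1 to 3, was the one in which Itga6 and Itgb4 were highest, but that block overlapped E20 1 to 3. WT and E20 4 to 6 overlapped at the top.

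Plec, the plectin gene, was at 406, 414 and 408 CPM in WT and at 884, 747 and 926 CPM in p53. In E20 1 to 3 Plec was at 770, 793 and 873 CPM, and in E20 4 to 6 at 736, 765 and 743 CPM. In E20/p53 1 to 3 it was at 493, 426 and 442 CPM, and in E20/p53 4 to 6 at 777, 818 and 764 CPM. Every tongue library lay above every WT library, E20/p53 1 to 3 lay lowest of the tongue blocks, and the other 4 tongue blocks overlapped one another in order. For the plakins, the ratio of E20/p53 1 to 3 over 4 to 6 was thus below 1, at 0.685 for Dst and 0.577 for Plec.

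Of the laminin-332 chains, Lama3 was at 2.05, 3.33 and 2.41 CPM in WT and at 0.335, 0.0652 and 0.315 CPM in p53. The E20 values of Lama3 were 1.16, 1.69 and 2.11 CPM in libraries 1 to 3 and 0.812, 0.534 and 0.206 CPM in libraries 4 to 6. The double mutants held it at 3.02, 3.25 and 3.88 CPM in libraries 1 to 3 and at 0, 0.114 and 0.132 CPM in libraries 4 to 6, with 4 reads in the 3 libraries together. The library with 0 reads allows up to 0.179 CPM. E20/p53 1 to 3 over 4 to 6 was 42.1 from summed reads (95% interval 16.1 to 156), and WT over p53, with 131 and 11 reads, was 11 (5.93 to 22.5). WT overlapped E20/p53 1 to 3 as well as E20 1 to 3.

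Lamb3, the beta 3 chain, was at 2.67, 3.79 and 2.59 CPM in WT and at 3.35, 4.04 and 3.72 CPM in p53. E20 libraries 1 to 3 held Lamb3 at 4.43, 5.14 and 3.95 CPM, and libraries 4 to 6 at 4.47, 3.40 and 5.08 CPM. Double mutant libraries 1 to 3 were at 3.27, 2.80 and 3.26 CPM, and libraries 4 to 6 at 2.68, 2.22 and 2.83 CPM. Neighbouring blocks overlapped at all but 1 step of its order. Lamb3 had 39 to 88 reads per library, while Itga3 had at least 1602.

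**Figure D2:**
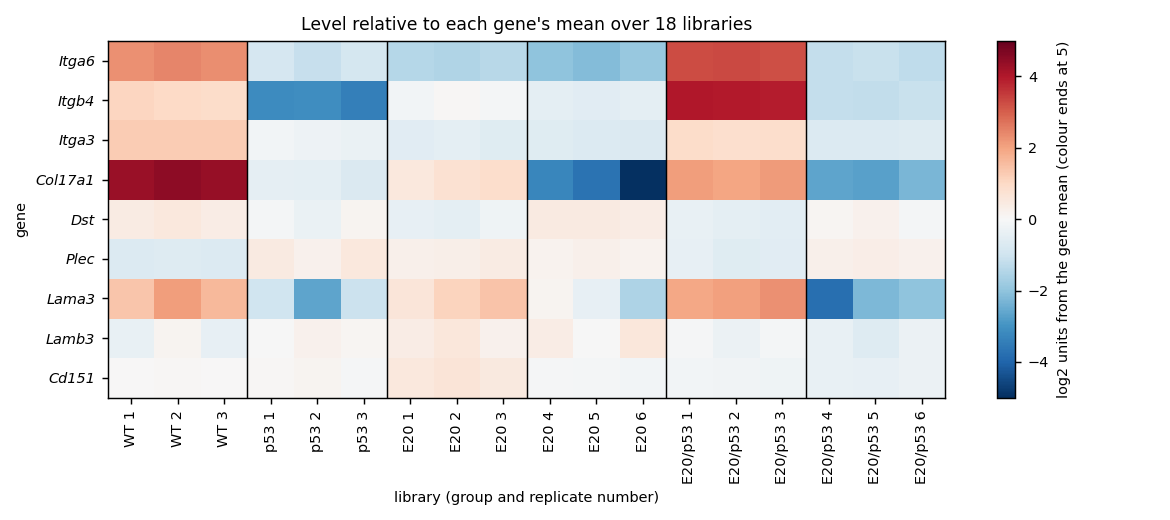
Level of each gene in each library relative to the gene's mean over the 18 libraries, in log2 units on the deposited scale, with vertical lines between blocks of 3 libraries. Itga6, Itgb4, Col17a1 and Lama3 were above their means in WT and in E20/p53 1 to 3, and Plec was below its mean in both blocks.

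Chains that form 1 protein complex were compared within a library as CPM per kilobase of exon. Itga6 over Itgb4 was 12.6 ± 1.06 in WT and 25.3 ± 5.08 in p53. It was 1.92 ± 0.215 and 1.75 ± 0.144 in the E20 blocks, and 3.00 ± 0.106 and 4.92 ± 0.435 in E20/p53 1 to 3 and 4 to 6 (n = 3 in each). The alpha 6 transcript was thus above the beta 4 transcript in every block, and the excess was lowest in E20. Itgb1 encodes the beta 1 chain, the other partner of alpha 6 and the partner of alpha 3, and Itgb4 over Itgb1 was 0.0880 ± 0.00572 in E20/p53 1 to 3, 0.0144 ± 0.00101 in WT and at most 0.00469 in the other blocks. Itga3 over Itgb1 was 0.387 ± 0.015 in WT, 0.232 ± 0.0172 in E20/p53 1 to 3 and from 0.0704 to 0.0873 in the other 4 blocks. Itga6 over Itga3 was above 1 in E20/p53 1 to 3, at 1.14 ± 0.0603, and was 0.468 ± 0.0305 in WT and at most 0.153 elsewhere. Among the laminin chains, Lama3 over Lamb3 was 0.672 ± 0.0894 in E20/p53 1 to 3, 0.528 ± 0.0512 in WT and 0.0201 ± 0.0174 in E20/p53 4 to 6.

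**Figure D3:**
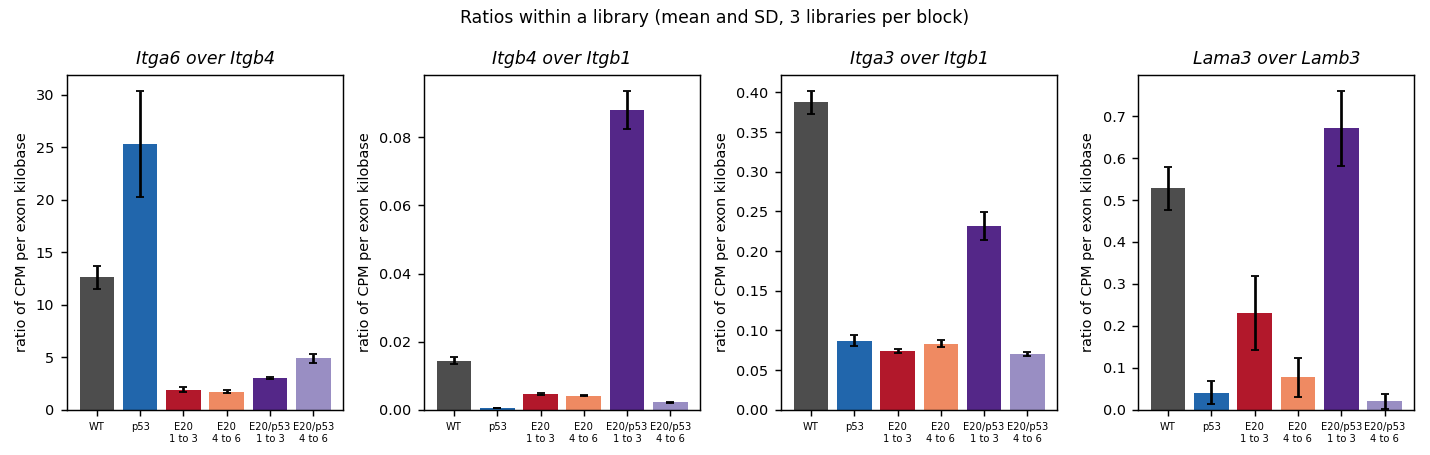
Ratio of 2 transcripts within a library, each as CPM per kilobase of exon, as mean (bar) and SD (whisker) of the 3 libraries of a block. Itgb4 over Itgb1 was 0.0880 in E20/p53 1 to 3 against 0.00219 in E20/p53 4 to 6, and Lama3 over Lamb3 was 0.672 against 0.0201 in the same blocks.

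E20/p53 against E20 asks how the tongue changes when the R172H allele joins H1047R, with the reservation that the labels name K14-Cre for the double mutants only. In the double mutants Itga6 was higher (log2 difference 2.75, SE 0.79, adjusted p = 0.0105), as was Itga3 (log2 0.72, SE 0.28, adjusted p = 0.0451). Lamb3 (log2 -0.62, SE 0.15, adjusted p = 0.00298) and Cd151 (log2 -0.50, SE 0.13, adjusted p = 0.00529) were lower. Thus 2 of the 9 genes were called higher and 2 lower, where 23.0% and 19.7% of all tested genes were called, so the share was near the background. Their median log2 difference was -0.21, against 0.05 for all tested genes. All 6 double mutant libraries were above all 6 E20 libraries for Itga6 and below them for Lamb3, a separation seen in 11.3% of tested genes in each direction.

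The call for Itga6 rested on unequal blocks. Its difference was log2 4.97 without E20/p53 4 to 6 and 0.53 without E20/p53 1 to 3 (adjusted p = 0.0126), and without E20 4 to 6 the call was lost (log2 2.46, adjusted p = 0.0884). The call for Itga3 was lost without E20/p53 1 to 3 (log2 -0.054), without E20 1 to 3 (adjusted p = 0.114) or E20 4 to 6 (adjusted p = 0.176), without any 1 E20 library (adjusted p = 0.0587 to 0.0759), and without any 1 of E20/p53 1, 2 or 3 (adjusted p = 0.106 to 0.108). The differences of Lamb3 and Cd151 held their direction and their call without each of the 4 blocks, at log2 -0.76 to -0.49 and -0.83 to -0.17. Itgb4 did not pass with all libraries (log2 1.68, SE 0.91, adjusted p = 0.148). In fits whose p-values leave out the spread between the double mutant blocks, it passed higher without E20/p53 4 to 6 (log2 4.25, adjusted p = 5.6e-12) and lower without E20/p53 1 to 3 (log2 -0.89, adjusted p = 1.7e-04). Lama3 did likewise, at log2 -0.51 (SE 0.96, adjusted p = 0.691) with all libraries, 1.87 (adjusted p = 0.00947) without E20/p53 4 to 6 and -2.89 (adjusted p = 0.00135) without E20/p53 1 to 3. Plec (log2 -0.39, SE 0.15, adjusted p = 0.0547), Col17a1 (log2 1.43, SE 1.19, adjusted p = 0.350) and Dst (log2 -0.21, SE 0.19, adjusted p = 0.375) did not pass. Plec passed when E20/p53 4, 5 or 6 was left out, at log2 -0.48 to -0.46, and without that whole block it stood at log2 -0.78 (adjusted p = 4.4e-07).

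**Figure D4:**
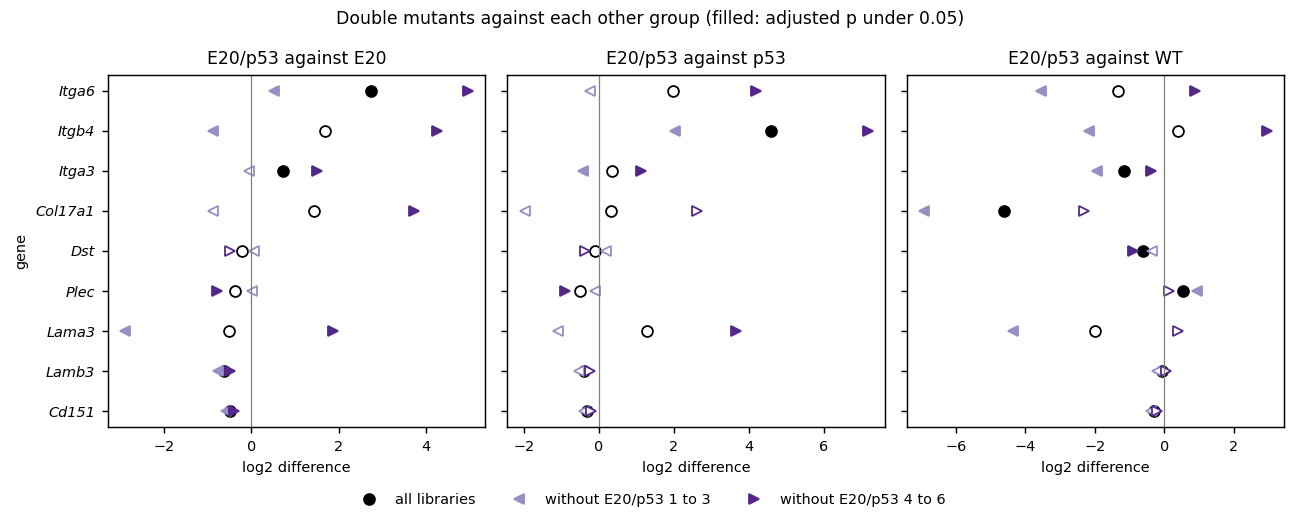
Log2 difference of the double mutants against E20, p53 and WT for each gene, with all libraries (circles) and without E20/p53 1 to 3 (left triangles) or 4 to 6 (right triangles); filled symbols have an adjusted p under 0.05. For Itgb4 against E20 the value was 1.68 with all libraries, -0.89 without 1 to 3 and 4.25 without 4 to 6, while Lamb3 and Cd151 against E20 moved little.

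Over both double mutant blocks, set side by side with no test, 5 members (Itga6, Itgb4, Itga3, Col17a1 and Lama3) were more than 1 log2 unit higher in libraries 1 to 3 and 0 were more than 1 unit lower. Of all tested genes, 15.6% were that much higher and 14.1% that much lower. Between E20 1 to 3 and 4 to 6, Col17a1 and Lama3 were higher by over 1 unit and 0 members were lower, with 10.6% and 6.65% of tested genes past this size. The basal keratinocyte sum was 1012 to 1038 CPM in E20/p53 1 to 3 against 14.5 to 16.7 CPM in 4 to 6, and the fibroblast sum 111 to 116 against 19713 to 21694 CPM. In E20 the basal sum was 111 to 130 against 5.48 to 6.14 CPM, and the fibroblast sum 16900 to 18957 against 18034 to 19330 CPM. The part that these marker genes have in the members' levels was not tested. Krt14 stood at 483 ± 10.6 CPM in E20/p53 1 to 3 and at 0.199 ± 0.0586 CPM in E20/p53 4 to 6, a gene whose promoter drives Cre in this group.

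E20/p53 against p53 asks how the tongue changes when H1047R joins R172H. The same reservation about K14-Cre applies, since the labels name it for the double mutants only. With both alleles Itgb4 was higher (log2 4.60, SE 1.11, adjusted p = 0.0067). It stayed higher without either block, at log2 2.03 without E20/p53 1 to 3 (adjusted p = 8.1e-07) and 7.17 without 4 to 6 (adjusted p = 2.7e-13). Here too, the p-values of fits without a block leave out the spread between the double mutant blocks and test no block. Itgb4 was the single member called higher, where 12.9% of tested genes were, and 0 members were called lower by limma, where 12.9% of tested genes were. At an unadjusted p under 0.05, 2 were lower, Plec (log2 -0.51, SE 0.19, adjusted p = 0.058) and Lamb3 (log2 -0.38, SE 0.18, adjusted p = 0.128). In either direction, 3 of the 9 members and 5901 of 15206 tested genes had an unadjusted p under 0.05. Voom with sample quality weights called 3 members lower, where it called 5930 of 15206 tested genes lower. Every double mutant library lay above every p53 library for Itgb4 (15.9% of tested genes) and below for Lamb3 and Cd151 (16.6%). Itga6 (log2 1.98, SE 0.97, adjusted p = 0.142), Lama3 (log2 1.28, SE 1.17, adjusted p = 0.437), Itga3 (log2 0.35, SE 0.34, adjusted p = 0.455) and Col17a1 (log2 0.31, SE 1.46, adjusted p = 0.891) did not pass. All 4 turned to negative values without E20/p53 1 to 3, at -0.25, -1.10, -0.42 and -1.98, where Itga3 passed (adjusted p = 7.4e-05), and without 4 to 6 they stood at 4.20, 3.66, 1.13 and 2.61. The median of the 9 was log2 0.31, against 0.02 for all tested genes.

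E20 against p53 sets the single mutant groups side by side. Limma called 0 members higher and 0 lower, where 14.5% and 16.5% of tested genes were called. At an unadjusted p under 0.05, 1 was higher, Itgb4 (log2 2.92, SE 1.11, adjusted p = 0.0566), at 8.25 ± 1.54 CPM in 6 E20 libraries against 1.02 ± 0.121 CPM in 3 p53 libraries. With voom and sample quality weights 3 members were called higher and 1 lower, where 4058 and 4330 of 15206 tested genes were. Every E20 library lay above every p53 library for Itgb4 (21.8% of tested genes) and below for Itga6 and Itga3 (23.8%). Skeletal muscle genes moved with this comparison, with a summed level of 1410 to 1468 CPM in p53 against 95 to 248 CPM in E20, and their part was not tested.

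Against WT, the 3 tongue groups each held lower levels of Itga3 and Col17a1 and a higher level of Plec. Tissue and genotype cannot be told apart in these comparisons, since WT is esophagus. The 3 comparisons also share the WT libraries, so their values are given side by side and not as repeats. Itga3 was lower in p53 (log2 -1.52, SE 0.39, adjusted p = 0.00389). The E20 group had a lower Itga3 level too (log2 -1.88, SE 0.34, adjusted p = 1.9e-04), as had E20/p53 (log2 -1.16, SE 0.34, adjusted p = 0.00964). Col17a1 was below WT, at log2 -4.93 in p53 (SE 1.68, adjusted p = 0.0209), -6.05 in E20 (SE 1.46, adjusted p = 0.0022) and -4.62 in E20/p53 (SE 1.46, adjusted p = 0.0154). Plec was higher in all 3, at log2 1.05 in p53 (SE 0.22, adjusted p = 7.8e-04), 0.93 in E20 (SE 0.19, adjusted p = 5.8e-04) and 0.54 in E20/p53 (SE 0.19, adjusted p = 0.0261). These 3 genes, an integrin chain, the membrane collagen and plectin, passed in every comparison with WT.

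Other members passed in some of these comparisons. For Itga6 the difference was log2 -3.30 in p53 (SE 1.12, adjusted p = 0.0202) and -4.08 in E20 (SE 0.97, adjusted p = 0.00199). Itgb4 was lower in p53 (log2 -4.21, SE 1.29, adjusted p = 0.0116). Lamb3 in E20 was higher by log2 0.55 (SE 0.18, adjusted p = 0.0166). In E20/p53, Dst was lower (log2 -0.62, SE 0.23, adjusted p = 0.0325). In p53, 1 member was higher and 4 were lower, where 29.3% and 24.8% of tested genes were called, with a median log2 of -1.52 over the 9. In E20, 2 were higher and 3 lower, where 29.0% and 26.2% were called, with a median of -1.29. In E20/p53, 1 was higher and 3 lower, where 26.6% and 21.5% were called, with a median of -0.62. The median over all tested genes was 0.04, 0.04 and 0.05 in these comparisons.

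Without overlap of libraries, Plec was the single member above WT in each of the 3 groups, where 43.3%, 33.8% and 26.8% of tested genes were above. Below WT without overlap were 6 members in p53, 4 in E20 and 4 in E20/p53, where 38.8%, 30.4% and 23.7% of tested genes were. Lama3 in p53 lay below WT without overlap but did not pass (log2 -3.27, SE 1.36, adjusted p = 0.0518). Several calls were narrow. The fit gives all groups 1 estimate of spread, which takes in the spread between the blocks of E20 and E20/p53. With p53 and WT fitted alone, 6427 tested genes were called higher and 5847 lower, against 4462 and 3775 in the main fit. In p53 Col17a1 was lost without WT replicate 2 or p53 replicate 3 (adjusted p = 0.0509 for both), and Itga6 without WT replicate 2 (adjusted p = 0.0505) or p53 replicate 2 (adjusted p = 0.0536). Lamb3 in E20 was lost without WT replicate 1 or 3 (adjusted p = 0.0798 and 0.0913) and without E20 1 to 3 (adjusted p = 0.0528). In E20/p53, Dst and Plec were lost without any 1 WT library (adjusted p = 0.065 to 0.109 and 0.0664 to 0.073). Plec in E20/p53 was also lost without E20/p53 replicate 4 or 6 (adjusted p = 0.0503 for both), and Dst without any 1 of E20/p53 1, 2 or 3 (adjusted p = 0.053 to 0.0575).

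Several differences of the double mutants from WT depended on which block was left out, and the p-values of those fits leave out the spread between the blocks. Itga6 was log2 -1.33 (SE 0.97, adjusted p = 0.272) with all libraries, but 0.90 (adjusted p = 7.0e-04) without 4 to 6 and -3.55 (adjusted p = 7.6e-10) without 1 to 3. Itgb4 was log2 0.39 (SE 1.11, adjusted p = 0.795) with all libraries, but 2.96 (adjusted p = 1.8e-09) without 4 to 6 and -2.18 (adjusted p = 5.6e-08) without 1 to 3. Lama3 was log2 -1.99 (SE 1.17, adjusted p = 0.174) with all libraries, 0.39 without 4 to 6 and -4.37 (adjusted p = 9.2e-05) without 1 to 3. Col17a1 was lower than WT in both cases, at log2 -2.32 (adjusted p = 0.157, no longer passing) without 4 to 6 and -6.92 without 1 to 3. Plec stood at log2 0.14 (adjusted p = 0.16) without 4 to 6 and 0.94 without 1 to 3, and Dst at -0.89 and -0.35 (adjusted p = 0.213). Against WT, the summed basal keratinocyte level was 34.2 CPM in WT and 1026 and 15.4 CPM in the double mutant blocks, and the summed level of 6 simple epithelium genes was 275 to 291 CPM in WT, 11.8 to 12.3 CPM in E20/p53 1 to 3 and at most 5.73 CPM in the rest. The part of these genes in the members' differences was not tested.

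With the libraries averaged to 6 block means, limma called 0 members in each of the 6 comparisons, and 1 member had an unadjusted p under 0.05, in E20 against WT, where 2067 of 15206 tested genes had one. Over all tested genes that fit called 0 to 8 per comparison. Scaling by library sums instead of the deposited totals moved the median of all genes to log2 0.16 in E20/p53 against E20, 0.11 in E20/p53 against p53, -0.13 in E20 against WT and -0.10 in p53 against WT, so small differences of members are relative to the scaling.

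The other genes of the pathway are described from lists chosen with earlier results of these data known. Of 29 anchoring partners (other laminin chains, integrin beta 1, talins, kindlins, tetraspanins and sheddases), 28 were tested. In E20/p53 against E20, 5 were higher and 7 lower, where 23.0% and 19.7% of tested genes were called, with a median log2 of -0.07. The tetraspanin gene Cd81 (log2 -1.18, SE 0.09, adjusted p = 3.1e-08) and the membrane protease gene Mmp14 (log2 -0.87, SE 0.09, adjusted p = 1.2e-06) were lower, as was Kank2, a talin-binding adaptor (log2 -0.57, SE 0.05, adjusted p = 3.8e-07). Against p53, 0 partners in the double mutants were higher and 5 lower, among them the laminin alpha 5 gene Lama5 (log2 -1.28, SE 0.23, adjusted p = 6.9e-04). Of all tested genes, 12.9% were called in each direction there. In E20 against p53, 4 were higher and 3 lower, where 14.5% and 16.5% of tested genes were called.

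Against WT, 8 anchoring partners were higher and 6 lower in p53, 10 and 5 in E20, and 6 and 7 in E20/p53. Of all tested genes, 29.3% were called higher and 24.8% lower in p53, 29.0% and 26.2% in E20, and 26.6% and 21.5% in E20/p53. Adam9, a membrane metalloproteinase gene, was at 117 CPM in WT and was higher by log2 1.39 in p53 (SE 0.08, adjusted p = 1.6e-09), 1.49 in E20 (SE 0.07, adjusted p = 6.7e-11) and 1.31 in E20/p53 (SE 0.07, adjusted p = 4.2e-10). ADAM9 is among the enzymes reported to shed the collagen XVII ectodomain. Itgb1 was higher in all 3 groups, by log2 0.64 in p53 (SE 0.11, adjusted p = 1.4e-04), 0.42 in E20 (SE 0.09, adjusted p = 0.00123) and 0.44 in E20/p53 (SE 0.09, adjusted p = 0.00106). Col7a1, the collagen of anchoring fibrils, was lower in all 3 groups, at log2 -2.97 in p53 (SE 0.40, adjusted p = 1.6e-05), -3.79 in E20 (SE 0.35, adjusted p = 1.6e-07) and -2.10 in E20/p53 (SE 0.35, adjusted p = 1.2e-04).

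Of the 5 plakin relatives of Dst and Plec, 2 were higher in E20/p53 than in E20, where 23.0% of tested genes were. Ppl, the periplakin gene, passed (log2 3.67, SE 0.92, adjusted p = 0.00449) with 34.3 ± 1.41 CPM in the first double mutant block and 1.21 ± 0.205 CPM in the other, against 0.954 ± 0.246 and 0.203 ± 0.0659 CPM in the E20 blocks. Against WT, 4 plakins were lower in E20, among them the desmoplakin gene Dsp (log2 -6.96, SE 2.47, adjusted p = 0.0248) and the epiplakin gene Eppk1 (log2 -3.45, SE 0.69, adjusted p = 5.1e-04). Of all tested genes, 26.2% were called lower in E20 than in WT. Of 9 genes of basal identity around the transcription factor p63, 7 were tested, and 2 were higher and 1 lower in E20/p53 than in E20. In that comparison 23.0% of all tested genes were called higher and 19.7% lower. Tfap2a was higher (log2 3.04, SE 0.71, adjusted p = 0.00257) and Tfap2c lower (log2 -4.03, SE 0.39, adjusted p = 6.4e-07). Against p53, 2 of the 7 were higher and 1 lower, among them Tfap2a (log2 5.79, SE 0.86, adjusted p = 1.6e-04) and Trp63 (log2 3.91, SE 1.07, adjusted p = 0.0139). There 12.9% of all tested genes were called in each direction. Trp63, the p63 gene, stood at 63.6 ± 3.85 CPM in E20/p53 1 to 3, 15.7 ± 0.204 in E20 1 to 3, 6.09 ± 0.31 in WT and at most 3.29 ± 0.212 in the other blocks.

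Likeness of pattern was measured as the mean absolute difference of log2 block means, each gene centred on its own mean of the 6 blocks. Among the members, the closest pairs were Lamb3 with Cd151 (0.17) and Plec with Lamb3 (0.33), and the farthest was Col17a1 with Plec (2.67). Itga6 and Itgb4, which form 1 receptor, were 1.20 apart, and Itgb4 and Lama3 were 1.15 apart. Over 11673 other genes with at least 5 CPM in 1 block, the median distance to Itgb4 was 1.73, and the nearest 5 were Tprg (0.57), Tspan13 (0.58), Prss16 (0.64), Trp63 (0.66) and Plek2 (0.67). The median distance to Lamb3 was 0.42, and the nearest 5 were Comtd1 (0.03), Cfl2 (0.07), Fadd (0.07), Lgals3 (0.08) and Capns1 (0.09). These distances rest on 6 points of unequal genotype and are a description.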

How the data were processed

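RNA of 18 libraries was sequenced after preparation with the TruSeq Stranded mRNA LT kit, per the labels' protocols. Per the submitters' processing notes the tools were bcl2fastq 1.8.4, Trimmomatic and featureCounts, on the build mm10. Of the aligner, annotation, strand setting and scaling method no record is given in the sources used here. The deposited values are log2 units. Each is the log2 ratio of a gene's reads, plus 1, to a total for its library: read back in this way, 100% of the values gave whole reads to within 0.001. That total was 0.939 to 1.12 times the library's summed reads. Low genes are therefore compressed toward 0 by the added read. CPM were computed from those reads and totals. Libraries held 14592044 to 18176060 reads, so 1 read was 0.056 to 0.0687 CPM.

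The main test was limma 3.58.1 in R 4.3.3 on the deposited log2 values, with a mean per group over all 18 libraries, the mean-variance trend, 14 residual degrees of freedom and Benjamini-Hochberg adjustment over 15206 genes. The threshold was an adjusted p of 0.05, two-sided. Genes were tested with at least 0.635 CPM (10 reads at the median depth) in 3 libraries and 15 reads in all, and all 9 members were tested. The members and the gene lists were chosen with earlier results of these data known, so no value is adjusted over a list and no set test was run. Named are all 9 members, up to 4 called genes per other pathway list and comparison by adjusted p with at least 5 CPM in the higher group, cell type lists by their summed level, and the 5 genes most like Itgb4 and Lamb3. A gene that this rule names is not reported here. GENCODE M21, also on mm10, gave exon lengths and positions. Reads were also simulated with a dispersion of 0.01 and no blocks inside groups. On these, 94% to 100% of genes changed 2-fold and 100% of those changed 4-fold were called, and 6 to 13 of 15006 unchanged genes. The real E20 and E20/p53 groups hold unlike blocks, so these shares do not give the power or error rate in these data. Alternatives were other scalings, filters and weights, a pseudocount of 1 CPM, the compared groups alone, a replicate block, 6 block means, and each library or block left out. The difference of the p53 effect with and without the PIK3CA allele was not tested, because WT, which has neither allele, is esophagus.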

Additional observations from a re-analysis of the deposited data

How the results depend on the processing

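With a single library left out, called differences of members kept their call in 142 of 168 cases and lost it in 26; uncalled ones stayed uncalled in 301 of 318, gained a call in 6 and turned sign in 11. Under the other alternatives, called differences kept their call in 169 of 205 cases, lost it in 35 and turned in 1, and uncalled ones kept their place in 275 of 377, gained a call in 65 and turned in 37. Lama3 and Lamb3 are limited by depth, and no reason for a change was tested.

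The labels state no pairing by replicate number. For deviations from the group mean, r was -0.056 to -0.015 in same-numbered libraries of E20/p53 and E20, and -0.047 to 0.063 in other-numbered ones. In p53 and E20 it was -0.026 to 0.104 and -0.111 to 0.1035. These deviations hold the difference between blocks, so they cannot show whether libraries are paired inside a block. WT and p53 hold numbers 1 to 3 only, so a replicate block there weighs those numbers. With the replicate block, 4 members were higher in E20 than in p53, 4 higher and 2 lower in E20/p53 than in p53, and 0 higher in E20/p53 than in WT. In the same order, 2705, 3240, 3160 and 4090 of 15206 tested genes were called with the replicate block. Under it Col17a1 (1.23), Dst (-0.21), Itga3 (0.046) and Itga6 (0.49) turned in E20 against p53, Itgb4 (0.11) and Lama3 (0.14) in E20 against WT, and Lamb3 (0.011) in E20/p53 against WT.

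With 6 block means, 0 members were called in every comparison and direction. With voom, 4 members were higher in E20/p53 than in E20, 5 higher and 3 lower than in p53, and 3 higher than in WT, 3 were higher and 1 lower in E20 than in p53, and 2 higher in p53 than in WT. Calls over all genes were many there too. Of 15206 tested genes, voom called 5676 higher in E20/p53 than in E20, 5962 higher and 5930 lower than in p53, and 6006 higher than in WT. It called 4058 higher and 4330 lower in E20 than in p53, and 6481 higher in p53 than in WT. With voom Col17a1 (0.16) and Dst (-0.10) turned in E20 against p53, Lama3 (1.29) in E20/p53 against E20, and Itga6 (0.78), Lama3 (0.32) and Lamb3 (0.12) in E20/p53 against WT. In fits of the 2 compared groups alone, 1 member was higher in E20/p53 than in E20, 0 higher and 1 lower than in p53, 0 higher than in WT, and 1 higher and 2 lower in E20 than in p53. Of 15206 tested genes, those fits called 2701 higher in E20/p53 than in E20, 1396 higher and 1449 lower than in p53, and 3534 higher than in WT. For E20 against p53 they called 3088 higher and 3349 lower. With the filter of 5 CPM, which leaves out Lama3 and Lamb3, 1 member was higher in E20 than in WT and 1 lower in E20/p53 than in E20, where 4018 and 2658 of 12297 tested genes were. With no filter 1 was higher in E20/p53 than in E20, where 3451 of 21648 tested genes were. With library sums 1 was higher in E20 than in WT and 1 lower in E20/p53 than in p53, where 3561 and 1753 of 15206 tested genes were. Cd151 then turned in p53 against WT (-0.14). With median-of-ratios factors 1 was higher in E20/p53 than in E20 and 1 lower than in p53, where 3247 and 2192 of 15206 tested genes were. Cd151 then turned in p53 against WT (-0.026). With log2 of CPM plus 1, Lama3 turned in E20/p53 against E20 (0.13).

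Without E20/p53 1 to 3, 1 member was higher and 4 lower than in E20, 1 lower than in p53 and 5 lower than in WT. Of 15206 tested genes, that fit called 4450 higher and 3616 lower than in E20, 2468 lower than in p53 and 4638 lower than in WT. Itgb4 (-0.89), Itga3 (-0.054), Col17a1 (-0.87), Dst (0.059) and Plec (0.013) then turned against E20, Itga6 (-0.25), Itga3 (-0.42), Col17a1 (-1.98), Dst (0.18) and Lama3 (-1.10) against p53, and Itgb4 (-2.18) against WT. Without E20/p53 4 to 6, 5 were higher than in E20, 4 higher and 1 lower than in p53 and 2 higher than in WT. Of 15206 tested genes, 5111 were then called higher than in E20, 4744 higher and 4974 lower than in p53, and 4774 higher than in WT. Without that block Lama3 turned against E20 (1.87) and Itga6 (0.90), Lama3 (0.39) and Lamb3 (0.060) against WT. Without E20 1 to 3, 1 member was higher in E20 than in WT and 1 higher than in p53, where 4313 and 2928 of 15206 tested genes were. Cd151 then turned against WT (-0.14) and p53 (-0.14) and Lama3 in E20/p53 against E20 (0.32). Without E20 4 to 6, 0 were higher in E20/p53 than in E20 and 1 in E20 than in p53, where 3139 and 2083 of 15206 tested genes were. Col17a1 then turned in E20 against p53 (1.27) and in E20/p53 against E20 (-0.96), as did Dst (-0.27 and 0.18).

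With each library left out in turn, the number of members higher was 1 to 2 in E20/p53 against E20, 1 to 2 in E20 against WT and 0 to 1 in E20/p53 against WT, and the number lower was 0 to 1 in E20/p53 against p53 and 2 to 4 in p53 against WT. Of 15206 tested genes, those fits called 3169 to 3636, 3736 to 4354 and 3289 to 4251 higher, and 1213 to 2335 and 3079 to 3256 lower, in the same order. Over the same alternatives the log2 difference of Cd151 in p53 against WT ran from -0.040 to 0.046, of Col17a1 in E20/p53 against p53 from -0.16 to 0.81, of Dst there from -0.21 to 0.021, of Itgb4 in E20/p53 against WT from -0.13 to 0.91, of Lamb3 there from -0.17 to 0.099, and of Lama3 in E20/p53 against E20 from -1.03 to 0.18.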

Other observations

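Col7a1 and Dsp encode anchoring proteins outside the hemidesmosome, and their levels by block were unlike each other. Col7a1, the collagen of the anchoring fibrils beneath the hemidesmosome, was at 88.5 ± 2.69 CPM in WT and at 11.4 ± 1.88 CPM in p53 (n = 3 in each block). In the E20 blocks it was at 6.56 ± 0.658 and 6.11 ± 0.202 CPM. The double mutant blocks held it at 12 ± 0.612 CPM (1 to 3) and 35.4 ± 3.93 CPM (4 to 6). The higher double mutant block for Col7a1 was therefore the one in which Itgb4, Col17a1 and Lama3 were low. Dsp, the desmoplakin gene of cell-to-cell junctions, stood at 94.9 ± 3.62 CPM in WT and 375 ± 7.11 CPM in E20/p53 1 to 3, with at most 6.79 ± 0.639 CPM in the other blocks. WT and E20/p53 1 to 3 were also the highest blocks for Itga6 and Itgb4. No test was made between blocks.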
